A study of Mus musculus with 4 samples.

Results

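The killer cell lectin-like receptors are the C-type lectin-like surface receptors through which natural killer (NK) cells, and some T and myeloid cells, read the surface of their neighbors. Members were all genes of the deposited tables whose symbol starts with Klr, a letter from a to k and a digit, which gave 26 of 32285 genes. They were followed in bone marrow cells of 5TMM mice, in which 5TGM1-luc myeloma cells had been injected intravenously into C57BL/KawRij mice. About 3 weeks later, 2 mice received vehicle and 2 mice received purinostat mesylate (PM), an inhibitor of class I and IIb histone deacetylases, at 10 mg/kg. Whole marrow was taken 24 h after treatment, red cells were lysed, and 1 droplet-based 3′ single-cell library was made per mouse. Mice of both groups thus carried the myeloma, and no tumor-free mouse was included. The question was whether PM changed the expression of these receptors in NK cells, T cells and myeloid cells.

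In NK cells, inhibitory and activating receptors of this family set the threshold for killing. The Klra genes encode the Ly49 receptors, most of which bind classical MHC class I molecules, and Klrd1 encodes CD94, which pairs with the NKG2 proteins of Klrc1 (inhibitory) and Klrc2 (activating) to read Qa-1, the product of H2-T23. Klrk1 encodes NKG2D, an activating receptor for stress-induced ligands, and the Klrb1 genes encode the NKR-P1 receptors, some of which bind Clec2 proteins. Activating members signal through the adaptors Tyrobp (DAP12), Hcst (DAP10) or Fcer1g, and most inhibitory members recruit the phosphatase Ptpn6.

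All 26 members lie on chromosome 6, and 24 of them, all but Klrg1 and Klrg2, lie within 2.64 Mb between positions 128609227 and 131247362 (GRCm38, the build named in the study's methods). Of the members, 23 matched an entry of the RefSeq promoter table (GRCm38.p6). The 250 bases before the start site are shown for the 4 members on which the myeloid results turned, with matches to GAGGAA (a core recognized by PU.1 and other ETS factors) and TGTGGT (a core recognized by RUNX factors), on either strand, in capitals.
Klrb1f, chr6:129045651-129045900, plus strand: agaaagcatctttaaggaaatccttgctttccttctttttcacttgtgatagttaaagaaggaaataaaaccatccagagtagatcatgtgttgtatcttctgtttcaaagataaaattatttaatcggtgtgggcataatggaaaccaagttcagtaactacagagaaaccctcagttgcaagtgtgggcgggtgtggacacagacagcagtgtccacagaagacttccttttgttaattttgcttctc
Klrk1, chr6:129623865-129624114, minus strand: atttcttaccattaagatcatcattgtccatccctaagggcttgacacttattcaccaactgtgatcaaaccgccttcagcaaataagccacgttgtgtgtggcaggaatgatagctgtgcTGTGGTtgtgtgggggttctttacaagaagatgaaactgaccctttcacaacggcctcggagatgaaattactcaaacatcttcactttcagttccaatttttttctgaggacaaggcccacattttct
Klra17, chr6:129876673-129876922, minus strand: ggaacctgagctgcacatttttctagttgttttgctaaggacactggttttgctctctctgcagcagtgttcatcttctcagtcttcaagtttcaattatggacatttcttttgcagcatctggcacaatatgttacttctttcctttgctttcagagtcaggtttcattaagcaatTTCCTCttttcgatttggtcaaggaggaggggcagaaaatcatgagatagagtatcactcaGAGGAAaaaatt
Klra2, chr6:131247363-131247612, minus strand: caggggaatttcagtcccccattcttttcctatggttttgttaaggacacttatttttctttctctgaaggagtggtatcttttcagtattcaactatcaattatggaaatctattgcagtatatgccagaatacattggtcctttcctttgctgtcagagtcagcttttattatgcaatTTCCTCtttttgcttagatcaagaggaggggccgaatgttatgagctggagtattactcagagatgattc
The Klra17 and Klra2 windows held GAGGAA (read as TTCCTC on the other strand) at 2 sites and 1 site, the Klrk1 window held 1 TGTGGT, and the Klrb1f window held no match to either. The 23 members had 28 such windows, since some have several start sites. GAGGAA stood in 17 windows (60.7%, 15 members) and TGTGGT in 9 (32.1%, 8 members), against 23.3% and 14.05% of all 32851 promoters of the table. None of the 28 windows held TGACTCA (an AP-1 site, 4.46% of all promoters) or GGTGTGA (a T-box core, 3.33%). The 4 motifs did not overlap one another in sequence. Such matches describe letters and not binding. The windows are not independent, since most members are neighbors within a gene family and some windows of the same gene overlap. No enrichment is read from these shares.

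After filtering, 9261, 7826, 13387 and 9269 cells remained in vehicle 1, vehicle 2, PM 1 and PM 2, with 69828595 to 109447030 UMIs per library before filtering. Libraries shared 18 to 41 cell barcodes by pair, and none of these belonged to an NK or T cell. NK cells were cells with at least 2 UMIs of Ncr1 and Klrb1c together and none of Cd3d, Cd3e and Cd3g, and they numbered 27, 44, 91 and 52. All 9 NK marker genes were detected in the NK cells of each library, and also in the T cells described next. In NK cells, Cd4, Cd8a and Cd8b1 together gave 2 UMIs in PM 1 and 0 in each other library. T cells, with at least 2 UMIs of the CD3 genes, numbered 229, 225, 695 and 432. The neutrophil marker genes summed to 13556 to 115407 CPM (UMIs of a gene per 1000000 UMIs of the summed cells) in NK cells, with the highest value in vehicle 1 and the lowest in PM 2, and to 43022 to 116990 CPM in T cells. Their part in the results was not tested as a cause, but NK cells were also tested without the cells richest in myeloid genes (results in the closing section). The 9 NK markers summed to 5206 to 8384.5 CPM in NK cells and 1457 to 2624 CPM in T cells. The 8 T cell markers summed to 666, 681, 483 and 942 CPM in NK cells, and to 2272 to 2978 CPM in T cells. The 6 B cell markers summed to 10.5, 313, 696 and 393 CPM in NK cells. The part of these transcripts was not tested.

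Levels are given as the CPM of a class in 1 library. Each UMI stands for 1 captured 3′ end, so levels of different genes are compared per molecule and not per base, and genes whose ends resemble those of a relative are less certain. Among the last 500 bases of the transcripts, 21.9% of the 90-base windows of Klrc1 were identical to one of another Klr gene (mostly Klrc2), as were 15.6% for Klra10, 12.4% for Klra9, 9.08% for Klrc3, 6.57% for Klra7, 6.36% for Klrc2, 5.15% for Klra3 and below 2% for every other member. Whether this mouse strain carries the same Ly49 gene copies as the reference was not tested.

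**Figure D1:**
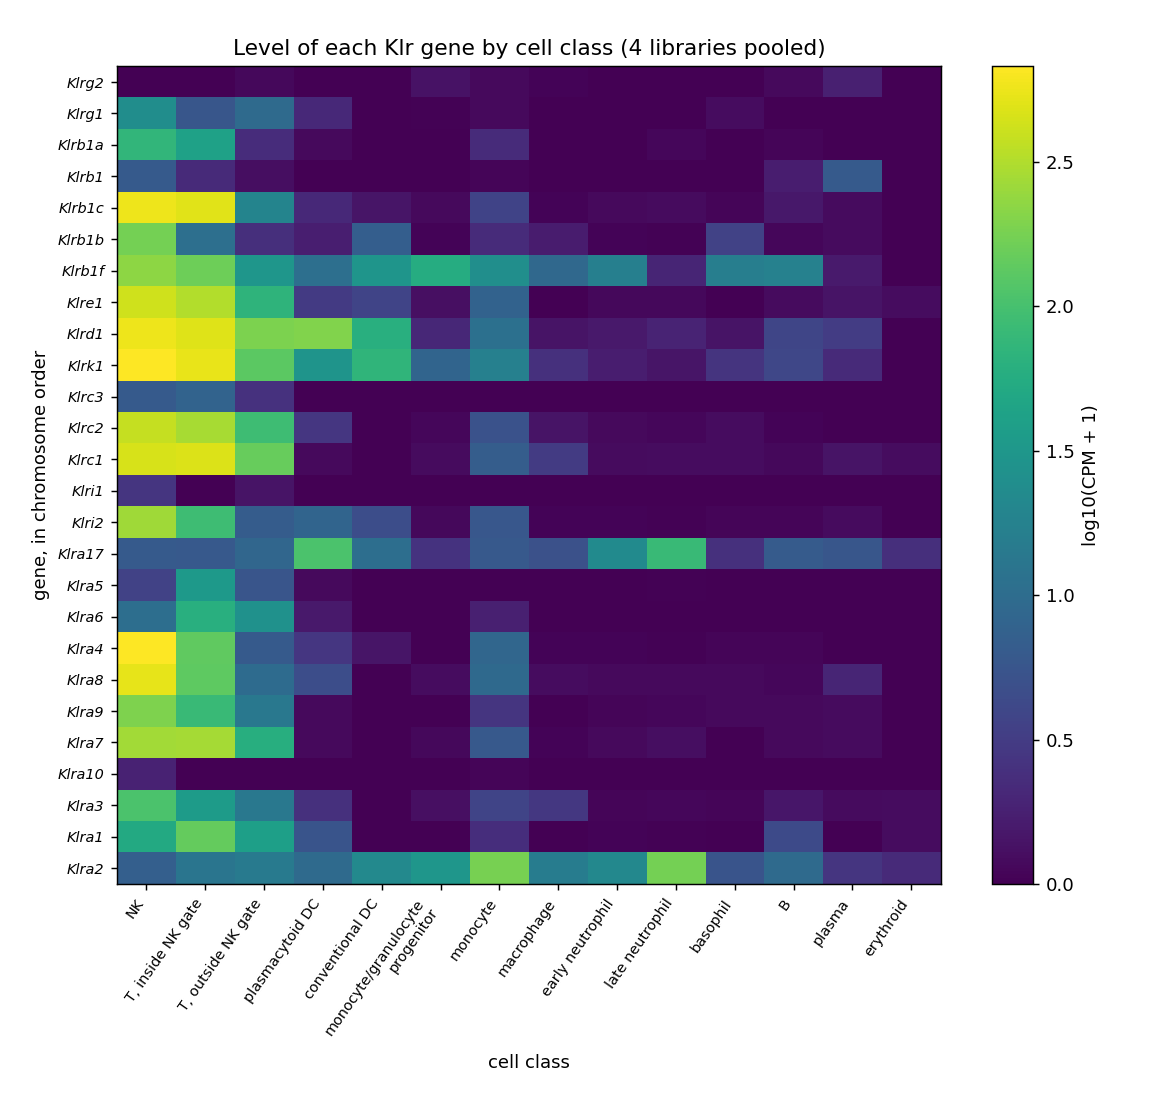
Level of the 26 Klr genes (rows, in chromosome order) in 14 cell classes (columns), as log10(CPM + 1) of the UMIs pooled over the 4 libraries. Most members are highest in NK cells, whereas Klra2 and Klra17 are highest in myeloid and plasmacytoid dendritic cells; "monocyte" stands for monocytes outside the progenitor and macrophage gates.

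Among the CD94/NKG2 receptors and their neighbors, Klrk1 gave 467 and 752 CPM in the NK cells of the vehicle mice and 584 and 1001 CPM in those of the PM mice. Klrd1 gave 577 and 631 CPM with vehicle against 429 and 825 CPM with PM. Klrc1 gave 409 and 451 CPM against 314 and 854 CPM. The groups overlapped for all 3 genes, with PM 2 highest and PM 1 at or below the vehicle values for Klrd1 and Klrc1. Klrc2 stood at 393, 476, 278 and 491 CPM, and Klre1, which encodes an NK receptor (NKG2I) that pairs with the Klri proteins, at 451, 426, 308 and 682 CPM. Klri2, the activating partner of Klre1, stood at 252, 410, 187 and 324 CPM.

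Among the Ly49 genes, the activating receptor Klra4 (Ly49D) was the most abundant in vehicle NK cells, with 682 and 1049 CPM, and stood at 493 and 692 CPM with PM. Klra8 (Ly49H, the activating receptor for a cytomegalovirus protein) gave 309, 690, 455.2 and 712 CPM in vehicle 1, vehicle 2, PM 1 and PM 2. The inhibitory Klra7 (Ly49G) gave 273, 393, 203 and 304 CPM. In each of these genes the vehicle and PM ranges overlapped. Klra9 (Ly49I) lay between 126 and 238 CPM, Klra3 (Ly49C) between 68.2 and 201 CPM, and Klra1 (Ly49A) between 27.8 and 96.1 CPM. After each cell was thinned to 2000 UMIs, the median NK cell held UMIs of 6.5, 7, 7 and 8 members, and 38.5%, 24.4%, 37.7% and 39.6% of NK cells held no UMI of a Ly49 gene, although 53.8%, 58.5%, 44.2% and 50% held at least 2 Ly49 genes. At this depth a cell without a Ly49 UMI is not shown to lack the transcript. In B cells, thinned in the same way, 98.2% to 98.9% of cells held no Ly49 UMI.

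Among the NKR-P1 genes, Klrb1f was at 121 and 163 CPM in vehicle NK cells and at 248 and 314 CPM in PM NK cells, without overlap, but was not called. Klrb1b (the inhibitory receptor for Clec2d) gave 163, 113, 151 and 309 CPM, and Klrb1a gave 57.7, 104, 57.6 and 83.4 CPM. Klrb1c, the NK1.1 antigen, was part of the gate and therefore has values without a test, 567 and 660 CPM with vehicle and 443 and 795 CPM with PM. Klrg1, an inhibitory receptor for cadherins, was low in NK cells, at 36.7, 33.4, 15.9 and 19.6 CPM.

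With edgeR's quasi-likelihood test on the summed UMIs of all genes, 0 of the 15 members tested were called between PM and vehicle in NK cells, and 0% of all 4460 genes tested were called. A call required a Benjamini-Hochberg adjusted p under 0.05 and an absolute log2 fold change over 0.5. The adjusted p was 0.999 for each of the 15 members. DESeq2 called 0 members as well. At an unadjusted p under 0.05, edgeR counted 1 member, Klrb1f (log2 fold change 0.94 ± 0.30 (SE), unadjusted p = 0.0112 in edgeR), and 100 of all genes. Log2 fold changes of the 15 members had a median of 0.09, 8 of them positive, beside a median of 0.01 over all genes. In counts simulated at this depth, 16.9% of genes changed by 1 on the log2 scale and 67.0% of those changed by 2 were recovered, so a change of 1 would mostly not have been detectable in these sums.

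**Figure D2:**
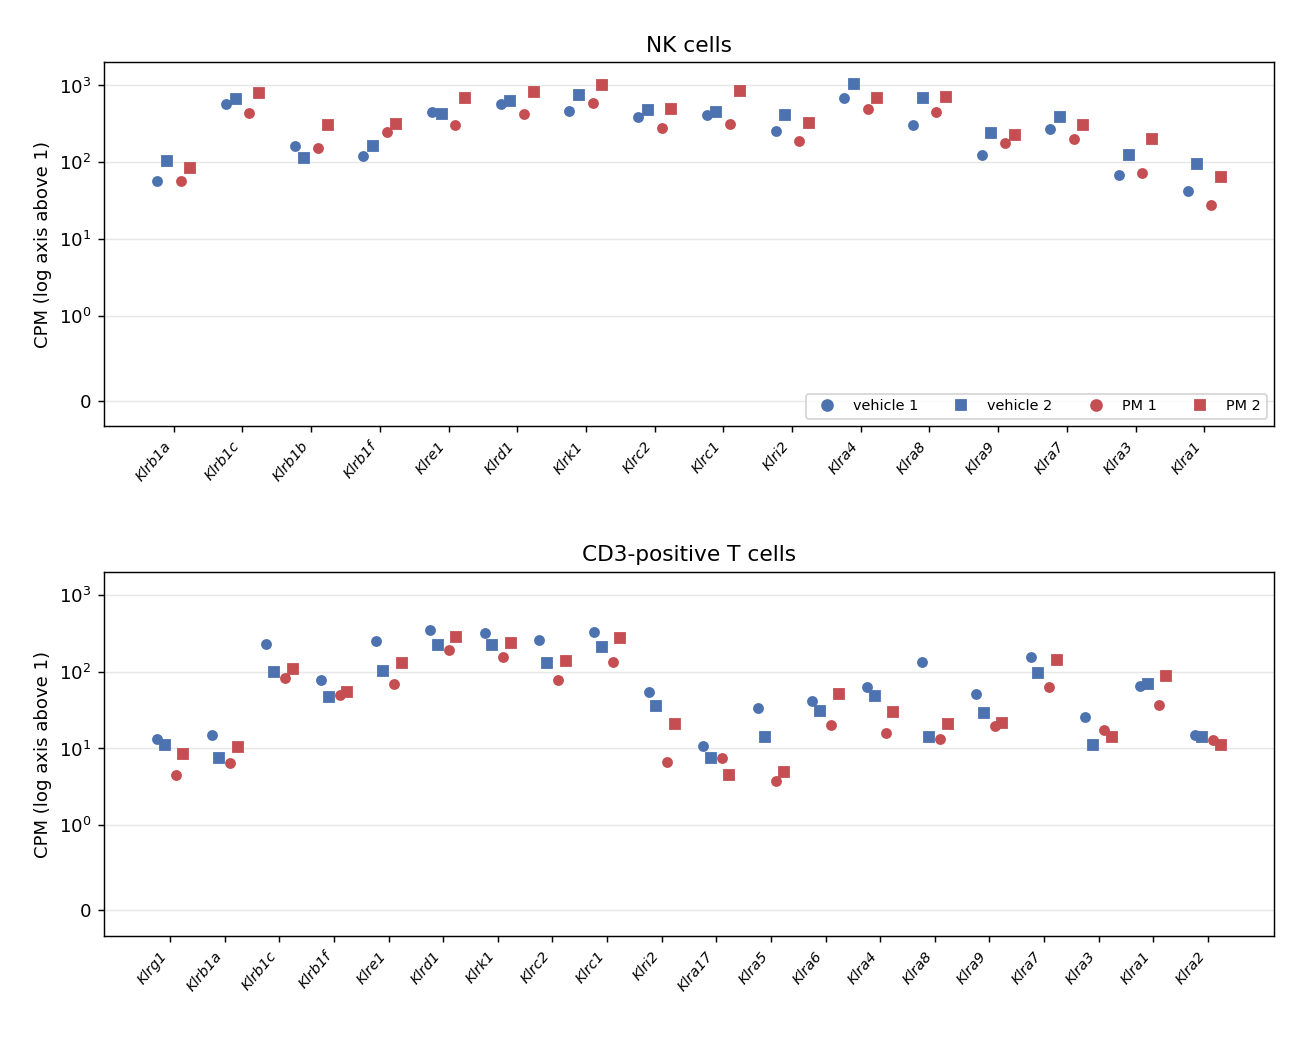
CPM (log axis above 1) of the members with at least 40 UMIs in NK cells (top) or T cells (bottom); each point is 1 library, blue for vehicle and red for PM. Vehicle and PM points overlap for most members in NK cells. In T cells Klra2, Klra4, Klra5, Klra9, Klrg1 and Klri2 lie lower in both PM libraries than in both vehicle libraries. None of these was called by edgeR. The share of all genes separated in this way is not given, so the list is not read as a result on the family. Klra5 and Klrg1 passed the filter through the vehicle libraries alone.

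Most of these receptors were also found in T cells. The T cells inside the NK gate (at least 2 UMIs of Ncr1 and Klrb1c) made up 33.2%, 14.7%, 14.2% and 15.7% of T cells in vehicle 1, vehicle 2, PM 1 and PM 2, so vehicle 1 stood apart from the other libraries. Klrd1 gave 353, 223, 193 and 285 CPM over all T cells, Klrk1 318, 224, 155 and 240 CPM, and Klrc1 332, 210, 135 and 278 CPM. In each of these genes vehicle 1 was highest and PM 1 lowest. A summed level cannot tell fewer cells of a subset from less RNA per cell.

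None of the 21 members tested was called between PM and vehicle in T cells, where 0.0803% of all 9964 genes were called by edgeR. DESeq2 called 2 members, Klra5 and Klri2, both lower with PM, beside 0.341% of all genes. All 21 log2 fold changes were negative in edgeR, with a median of -0.60 beside -0.0024 over all genes, and 7 members had an unadjusted p under 0.05 (1242 of all genes). Of the 21, Klra5, Klrb1b, Klra17 and Klrg1 passed the filter on low counts (10 UMIs at the median library, here 5.61 CPM) through the vehicle libraries alone, where they were high, so neither their values nor the median over the members is read as support. Klra5 (Ly49E), a receptor found on fetal NK cells and some T cells, was at 33.6 and 14.1 CPM with vehicle and 3.75 and 4.95 CPM with PM, a log2 fold change of -2.53 ± 0.44 (adjusted p = 0.0601). Klra4 was at 63.2 and 48.3 CPM against 15.8 and 29.7 CPM (log2 fold change -1.42, adjusted p = 0.0752). Neither gene overlapped between the groups, but neither passed the threshold. Klri2 was at 54.6 and 35.7 CPM against 6.75 and 20.7 CPM, with an adjusted p of 0.225. Klrb1b had 13 and 10 UMIs in vehicle T cells and 0 and 4 in PM T cells (adjusted p = 0.126). In Klra8, vehicle 1 alone was high, with 134 CPM against 14.1 CPM in vehicle 2 and 13.3 and 20.7 CPM with PM. The count of called members changed without vehicle 2 and without PM 1, where 1 library of that group remained. It is not read as a result on the family.

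The T cells were then divided by the NK gate. In T cells outside it, Klri2 was at 18.9 and 13.2 CPM with vehicle and at 2.09 and 1.62 CPM with PM, a log2 fold change of -3.11 ± 0.52 (adjusted p = 0.00684 in edgeR). It was the only one of 17 members called there, beside 2.26% of all 9622 genes, and rested on 15, 15, 7 and 3 UMIs. Klri2 passed the filter (6.69 CPM) through the vehicle libraries alone, so that this call is a description of its values and no support for a change. In T cells inside the gate, 0 of 17 members were called, beside 0.0304% of 6587 genes, and 4 members had an unadjusted p under 0.05 (316 of all genes). There Klrk1 gave 490, 649, 482 and 650 CPM and Klrd1 546, 515, 362 and 612 CPM, levels close to those of NK cells, with overlapping groups. DESeq2 was not run on the T cells inside the gate.

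T cells with a UMI of Klrc1 made up 41.9% (95% exact binomial interval 35.5% to 48.6%) and 33.3% (27.2% to 39.9%) of the T cells of the vehicle mice, and 26.8% (23.5% to 30.2%) and 33.6% (29.1% to 38.2%) of those of the PM mice. After thinning to 2000 UMIs the shares were 35.8%, 26.0%, 19.8% and 26.5%. The value of PM 2 lay between those of the vehicle mice before and after thinning. T cells with CD8 and without CD4 transcripts made up 27.5% and 32% of T cells with vehicle and 43.5% and 47.7% with PM. This share was higher in both PM mice, whereas Klrd1, Klrk1 and Klrc1 levels over all T cells overlapped between the groups, with PM 2 above vehicle 2. The part of this shift in makeup in the T cell values above was not tested beyond the CD8-only alternative of the closing section. The intervals cover counting error only.

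In NK cells against T cells, with the mouse as a block, 13 of 19 members tested were called by edgeR, 12 higher and 1 lower in NK cells, beside 2.02% of all 9264 genes called higher and 3.09% called lower. Klra4 had a log2 fold change of 4.20 ± 0.20 (adjusted p = 1.25e-09), Klri2 of 3.44 ± 0.40 (adjusted p = 0.00857) and Klrb1a of 2.85 ± 0.30 (adjusted p = 1.66e-06). Then followed Klra9 (2.64), Klra3 (2.56), Klrb1f (1.78), Klre1 (1.73), Klrk1 (1.46), Klrc2 (1.40), Klra7 (1.28), Klrd1 (1.09) and Klrc1 (0.94). Klra4 and Klri2 thus had larger called fold changes than the CD94/NKG2 genes Klrd1, Klrc1 and Klrc2. The T cells summed here lay mostly outside the NK gate. In T cells inside it, Klrc1 stood at 474.7 CPM and Klra7 at 283 CPM over the pooled libraries. In NK cells these genes stood at 455.7 and 273 CPM. The other members called higher were lower in T cells inside the gate than in NK cells. The part of T cell makeup in these calls was not tested. Klra6 (Ly49F) was the only member called lower in NK cells, with 20.3 to 51.3 CPM in T cells and a log2 fold change of -1.85 ± 0.39 (adjusted p = 0.00540). Klra6 passed the filter through T cells alone and Klrb1a through NK cells alone, so these calls, which are among the 13, describe their values only. Klrb1b (5.59 ± 0.95, adjusted p = 0.0897) and Klra8 (4.07 ± 1.03, adjusted p = 0.221) had large fold changes that were not called. Klri2 was not called without vehicle 2 (adjusted p = 0.169) or without PM 2 (0.0960), and Klra6 not without PM 2 (0.0523).

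**Figure D3:**
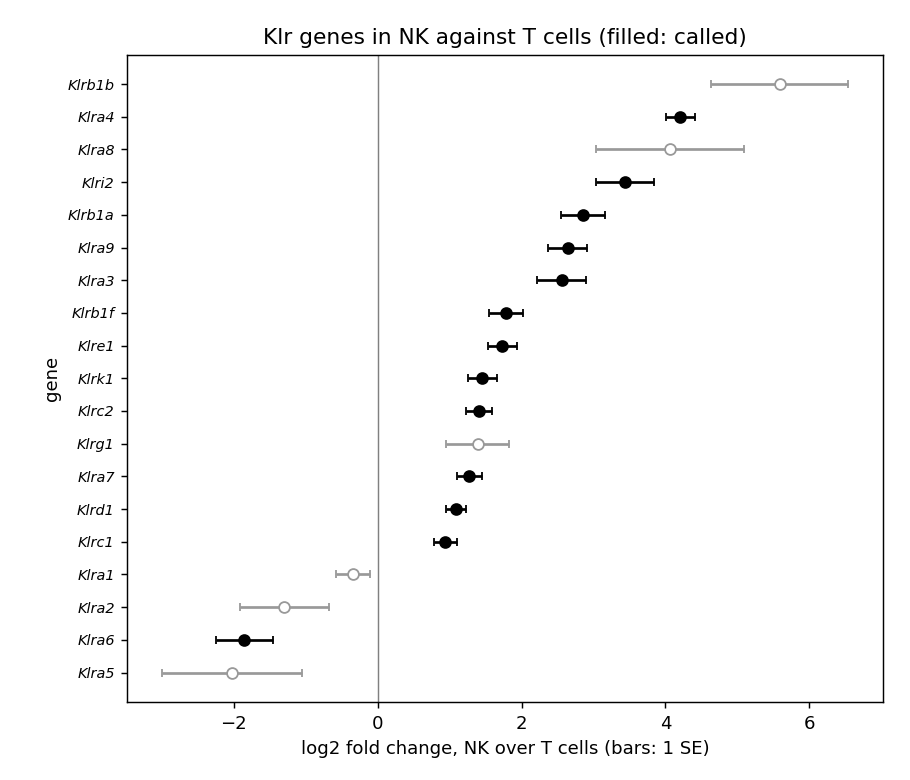
Log2 fold change of 19 Klr genes in NK over T cells from edgeR with the mouse as a block (x axis); bars are 1 standard error and filled points were called. Klra4, at 4.20, is the highest called gene, and Klra6, at -1.85, is the only called gene below 0. Klra6 passed the filter through T cells alone and Klrb1a through NK cells alone, so their filled points describe their values only. The T cells are those inside and outside the NK gate together.

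In the edgeR interaction test of the PM effect between NK and T cells, 1 of 19 members, Klrb1b, was called, beside 0.0216% of all 9267 genes. In simulated counts, 10% of interactions of 2 on the log2 scale were recovered. Klrb1b passed the filter through NK cells alone, so its call describes its values only. Its level was 163, 113, 151 and 309 CPM in NK cells and 10.1, 7.43, 0 and 1.80 CPM in T cells, and the difference of the log2 fold changes was 4.17 ± 0.74 (adjusted p = 0.0456). Klrb1b was no longer called without PM 1 (3.32) or with the T cells outside the NK gate alone (6.15, adjusted p = 0.102).

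Myeloid cells held another part of the family. The gate named for them by the selection rule, a share of myeloid genes above the 90th percentile of T cells of the same library, gave thresholds from 5.11% to 39.2% of UMIs, and was therefore replaced, after the values were seen, by 1 gate for neutrophils (at least 10% of UMIs in neutrophil genes; 6465, 4168, 7584 and 5715 cells) and 1 for monocytes and macrophages (at least 3 UMIs of their genes; 1357, 1034, 1803 and 991 cells). With the percentile gate, 3 of 6 members were called higher with PM (Klrb1f, Klrd1 and Klrk1), beside 7.08% of all 12365 genes called higher, but Klrd1 and Klrk1 passed the filter through the PM libraries alone.

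Klrb1f rose with PM in neutrophils. It gave 210 UMIs in vehicle 1, 155 in vehicle 2, 986 in PM 1 and 693 in PM 2, or 4.27, 4.88, 21.0 and 19.9 CPM. Both PM libraries lay above both vehicle libraries, with a log2 fold change of 2.04 ± 0.13 (edgeR, adjusted p = 9.70e-04). It was the only one of 6 members called, beside 2.93% of all 12611 genes called higher. Neutrophils with a Klrb1f UMI made up 2.71% (95% exact binomial interval 2.33% to 3.13%) and 2.81% (2.33% to 3.35%) with vehicle, and 8.40% (7.78% to 9.05%) and 7.51% (6.84% to 8.22%) with PM, and after thinning 0.510%, 0.488%, 2.31% and 2.25%. In B cells, used as a class not known for these receptors, the shares were 7.51%, 2.46%, 7.11% and 7.96%, at a median of 2427.5 to 2943.5 UMIs per cell beside 4476 to 5698 in neutrophils, and the B cell level was 14.5, 8.33, 22.03 and 15.9 CPM (log2 fold change 0.79, adjusted p = 0.795; 0 of 6 members and 0.0164% of 12162 genes called). After thinning, 0.741%, 0.915%, 2.13% and 1.92% of B cells held a Klrb1f UMI, also higher in both PM libraries than in both vehicle libraries. The vehicle level in neutrophils was thus below that of B cells and the PM level was near it, so that the share of neutrophils with a UMI is not read as above background. In neutrophils the 9 NK markers summed to 38.9, 51.4, 105 and 67.5 CPM and the 8 T cell markers to 4.33, 6.42, 10.7 and 8.04 CPM, each higher in both PM libraries. The NK marker sums came mostly from Nkg7, with 1832, 1564, 4688 and 2230 UMIs, beside 2, 0, 10 and 0 of Ncr1.

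The call was made in early neutrophils, which had no more Retnlg and Cxcr2 than Ngp, Camp and Ltf UMIs. Klrb1f there was at 5.45 and 6.22 CPM with vehicle and 25.4 and 24.6 CPM with PM (log2 fold change 1.98, adjusted p = 6.63e-04; 1 of 5 members, beside 2.90% of genes called higher). In late neutrophils it had 5 and 1 UMIs with vehicle and 24 and 4 with PM, or 0.431, 0.143, 2.67 and 0.580 CPM, too few to pass the filter and below the B cell level in each library, and 0 of the 3 other members tested were called, beside 4.33% of 9587 genes (0 members and 2318 of all genes at an unadjusted p under 0.05 in edgeR). Over all neutrophils without a UMI of Ncr1, Klrb1c, Klrd1, Nkg7, Gzma or a CD3 gene, the log2 fold change of Klrb1f was 1.85 (edgeR, adjusted p = 6.37e-04). This left 5764, 3648, 6118 and 4826 cells. Nkg7 had 1832, 1564, 4688 and 2230 UMIs in neutrophils, so the filter was not independent of treatment. Of these, 1804, 1542, 4592 and 2211 fell in early neutrophils, so the filter may also have changed the share of early cells. Leaving out cells does not remove stray lymphoid transcripts from the kept ones, and their part was not tested.

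In monocytes and macrophages, 2 of 13 members were called, both higher with PM, beside 0.484% of all 12806 genes called higher. Klrb1f was at 25.0 and 31.0 CPM with vehicle and 60.9 and 54.0 CPM with PM, a log2 fold change of 1.00 ± 0.15 (adjusted p = 0.0361). Klrk1 was at 1.89 and 3.01 CPM against 11.9 and 12.8 CPM, a log2 fold change of 2.31 ± 0.25 (adjusted p = 0.0244). Neither gene overlapped between the groups, and both passed the filter in both groups, whereas 7 of the 13 members passed through the PM libraries alone. Cells with a Klrk1 UMI made up 2.43% (1.68% to 3.398%) and 3.48% (2.45% to 4.79%) with vehicle. With PM the shares were 12.4% (10.9% to 13.98%) and 13.6% (11.5% to 15.9%). In B cells, which held fewer UMIs per cell, they were 1.28% to 2.31% in the 4 libraries. By level, Klrk1 in B cells was at 3.62, 2.54, 3.20 and 2.91 CPM, near the 1.89 and 3.01 CPM of vehicle monocytes and macrophages. The vehicle shares are thus not read as above background. Both genes lost their call without PM 1 (adjusted p = 0.108 for Klrb1f and 0.0941 for Klrk1) and without PM 2 (0.0603 and 0.0587), where 1 PM library remained. The count of called members also changed without vehicle 1 and without vehicle 2, where 1 vehicle library remained. It is not read as a result on the family.

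**Figure D4:**
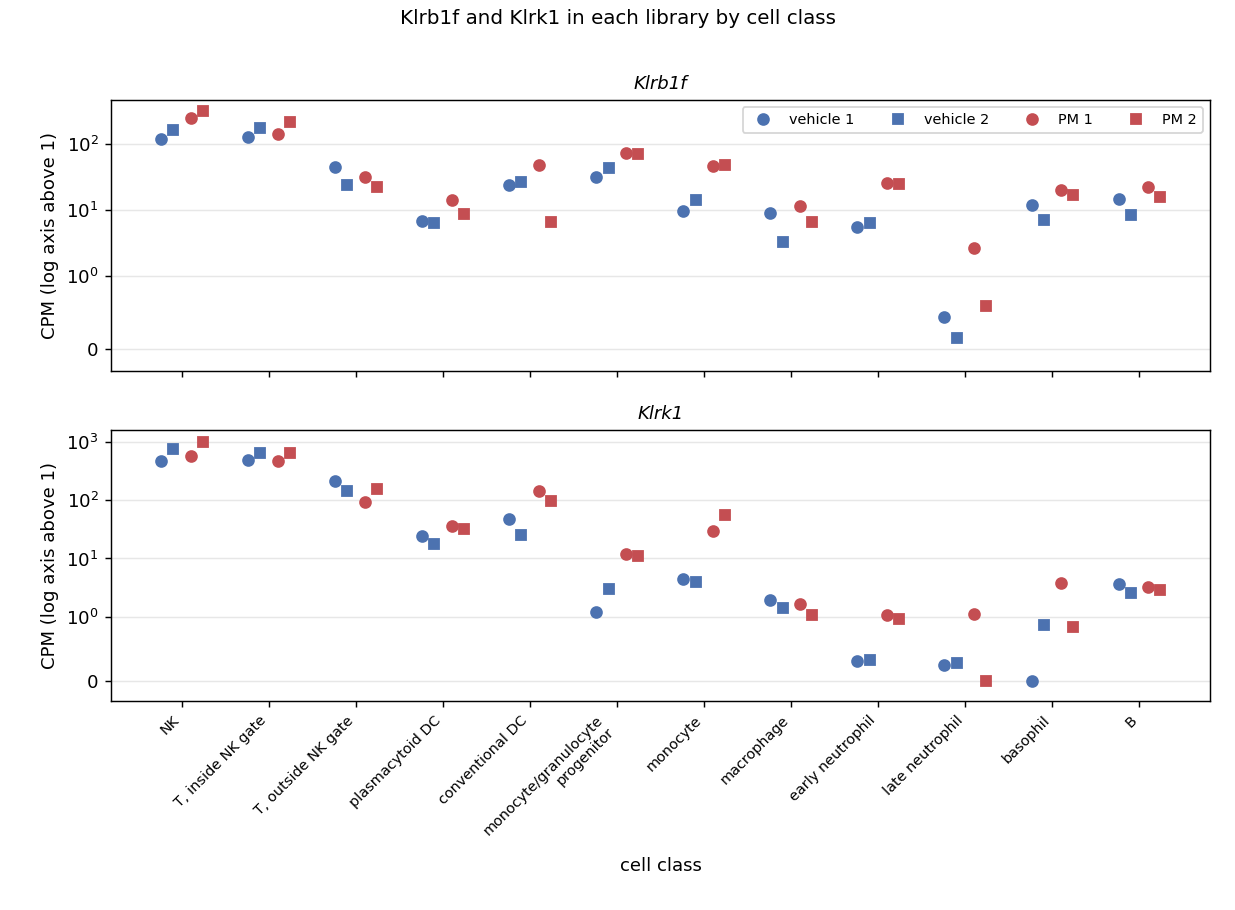
CPM (log axis above 1) of Klrb1f (top) and Klrk1 (bottom) in 12 cell classes; each point is 1 library, blue for vehicle and red for PM. For both genes, both PM points lie above both vehicle points in progenitors, monocytes and early neutrophils, and the groups overlap in T cells outside the NK gate. The rise is not particular to these classes. Klrb1f was also higher in both PM libraries in NK cells, B cells, plasmacytoid dendritic cells, basophils and late neutrophils, and Klrk1 in both kinds of dendritic cell. The label "monocyte" stands for monocytes outside the progenitor and macrophage gates.

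The monocytes were divided further, into progenitors (at least 3 UMIs of Elane, Mpo and Prtn3), macrophages (at least 3 UMIs of C1qa, C1qb and Vcam1) and the rest. In progenitors, Klrb1f was at 31.8, 43.0, 72.7 and 71.0 CPM (log2 fold change 0.91, adjusted p = 0.0373) and Klrk1 at 1.22, 3.03, 11.9 and 11.1 CPM (2.48 ± 0.35, adjusted p = 0.0210), 2 of 5 members called beside 0.915% of 11914 genes called higher. Both called genes passed the filter in both groups, whereas 2 of these 5 members passed through the PM libraries alone. Klrk1 had 19, 30, 244 and 122 UMIs in these progenitors, where Ncr1 had 0 in all 4 libraries and Klra4 had 0, 0, 1 and 0. Klrd1 had 2, 6, 41 and 11 UMIs there and the CD3 genes 5, 7, 20 and 9, both higher in both PM libraries. The 9 NK markers summed to 112, 81.7, 185 and 158 CPM, mostly from Nkg7 with 1701, 792, 3770 and 1719 UMIs. The part of these transcripts in the result was not tested within the progenitors.

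In the remaining monocytes both genes rose, and markers of NK and T cells were higher with PM as well. Klrb1f was at 9.68, 14.4, 46.7 and 47.5 CPM and Klrk1 at 4.36, 3.94, 29.8 and 54.95 CPM, and these were the 2 called of the 4 members that passed the filter (3.31 CPM) in both groups, beside 0.885% of 10280 genes called higher. The other 10 of the 14 members tested passed through the PM libraries alone. Klre1, Klrc1 and Klri2, with 1 to 5 UMIs in each vehicle library and 22 to 48 in each PM library, were among them, and their calls are not counted. The 9 NK markers summed to 29.5, 24.0, 122 and 223 CPM in these cells, the 8 T cell markers to 3.63, 2.82, 26.2 and 105 CPM, and Klra4 had 0, 4, 30 and 54 UMIs. The part of these lymphoid transcripts in the result was not tested in this subset. Over all monocytes and macrophages without cells holding the lymphoid UMIs listed above, Klrb1f rose by 1.42 (adjusted p = 0.0145) and Klrk1 by 2.67 (adjusted p = 0.0163). This left 1073, 828, 1064 and 602 cells. Nkg7, among the genes of this filter, was itself called higher with PM in monocytes and macrophages, so the filter was not independent of treatment. In progenitors Nkg7 had 1701, 792, 3770 and 1719 UMIs, beside 0 of Ncr1 in each library. The filter may thus also have taken out progenitors, and the part of this change in makeup was not tested. In macrophages, 0 of 2 members were called by edgeR, beside 0.190% of 10552 genes, with 0 members and 899 of all genes at an unadjusted p under 0.05.

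The log2 fold change of Klrb1f with PM was larger in neutrophils than in monocytes and macrophages summed together. This sum was mixed, with 31.8, 43.0, 72.7 and 71.0 CPM in progenitors and 9.68, 14.4, 46.7 and 47.5 CPM in the remaining monocytes. The subsets were not tested against neutrophils, so the difference holds for the summed class only. The log2 fold changes of 2.04 and 1.00 differed by 1.04 ± 0.14 in the edgeR interaction test with the mouse as a block (adjusted p = 0.00429), the only 1 of 14 members, beside 2.57% of all 13904 genes called higher. The difference ranged from 0.94 to 1.15 when each library was left out in turn, with adjusted p values of 8.87e-04 to 0.0192.

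Klra2 and Klra17 were the most abundant members of neutrophils and were not called there. Klra2 (Ly49B) is an inhibitory receptor known on myeloid cells, and 64.7% of its 13214 UMIs fell in neutrophils and 30.0% in monocytes and macrophages. It was at 50.7 and 43.0 CPM in vehicle neutrophils and 52.2 and 64.1 CPM in PM neutrophils (log2 fold change 0.18, adjusted p = 0.453), and at 71.3 and 39.99 against 44.0 and 33.6 CPM in monocytes and macrophages (-0.56, adjusted p = 0.493). In each library it was higher in late than in early neutrophils, at 163, 163, 174 and 205 CPM against 16.1, 9.01, 23.3 and 29.4 CPM. Klra17 (Ly49Q), an inhibitory receptor known on plasmacytoid dendritic cells and neutrophils, had 82.4% of its 6840 UMIs in neutrophils, at 40.5, 24.0, 30.7 and 41.4 CPM (log2 fold change 0.02, adjusted p = 0.972). In late neutrophils it stood at 93.2, 73.4, 71.0 and 87.6 CPM, and in early ones at 24.3, 10.0, 21.1 and 29.9 CPM.

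Dendritic cells and basophils held few members, and none was called. Plasmacytoid dendritic cells gave Klrd1 at 196, 197, 178 and 238 CPM, while Klrc1 had at most 1 UMI in any library. Their Klra17 was at 98.1, 98.3, 105 and 124 CPM, and their Klrk1 at 24.5, 17.6, 36.3 and 31.7 CPM (log2 fold change 0.75, adjusted p = 0.507; 0 of 4 members and 0.316% of 9489 genes called). In conventional dendritic cells, of which there were 26 to 58 per library, Klrk1 was at 47.4 and 25.8 CPM with vehicle and 146 and 98.7 CPM with PM, without overlap but not called (1.91 ± 0.38, adjusted p = 0.115; 0 of 4 members and 0.0920% of 6524 genes called). In basophils, Klrb1f was at 12.01, 6.97, 19.96 and 16.9 CPM (0.97 ± 0.30, adjusted p = 0.489; 0 of 2 members and 0% of 10555 genes called). At an unadjusted p under 0.05, edgeR counted 1 member in each of these 3 classes, Klrk1 in both kinds of dendritic cell and Klrb1f in basophils. DESeq2 was not run on them.

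**Figure D5:**
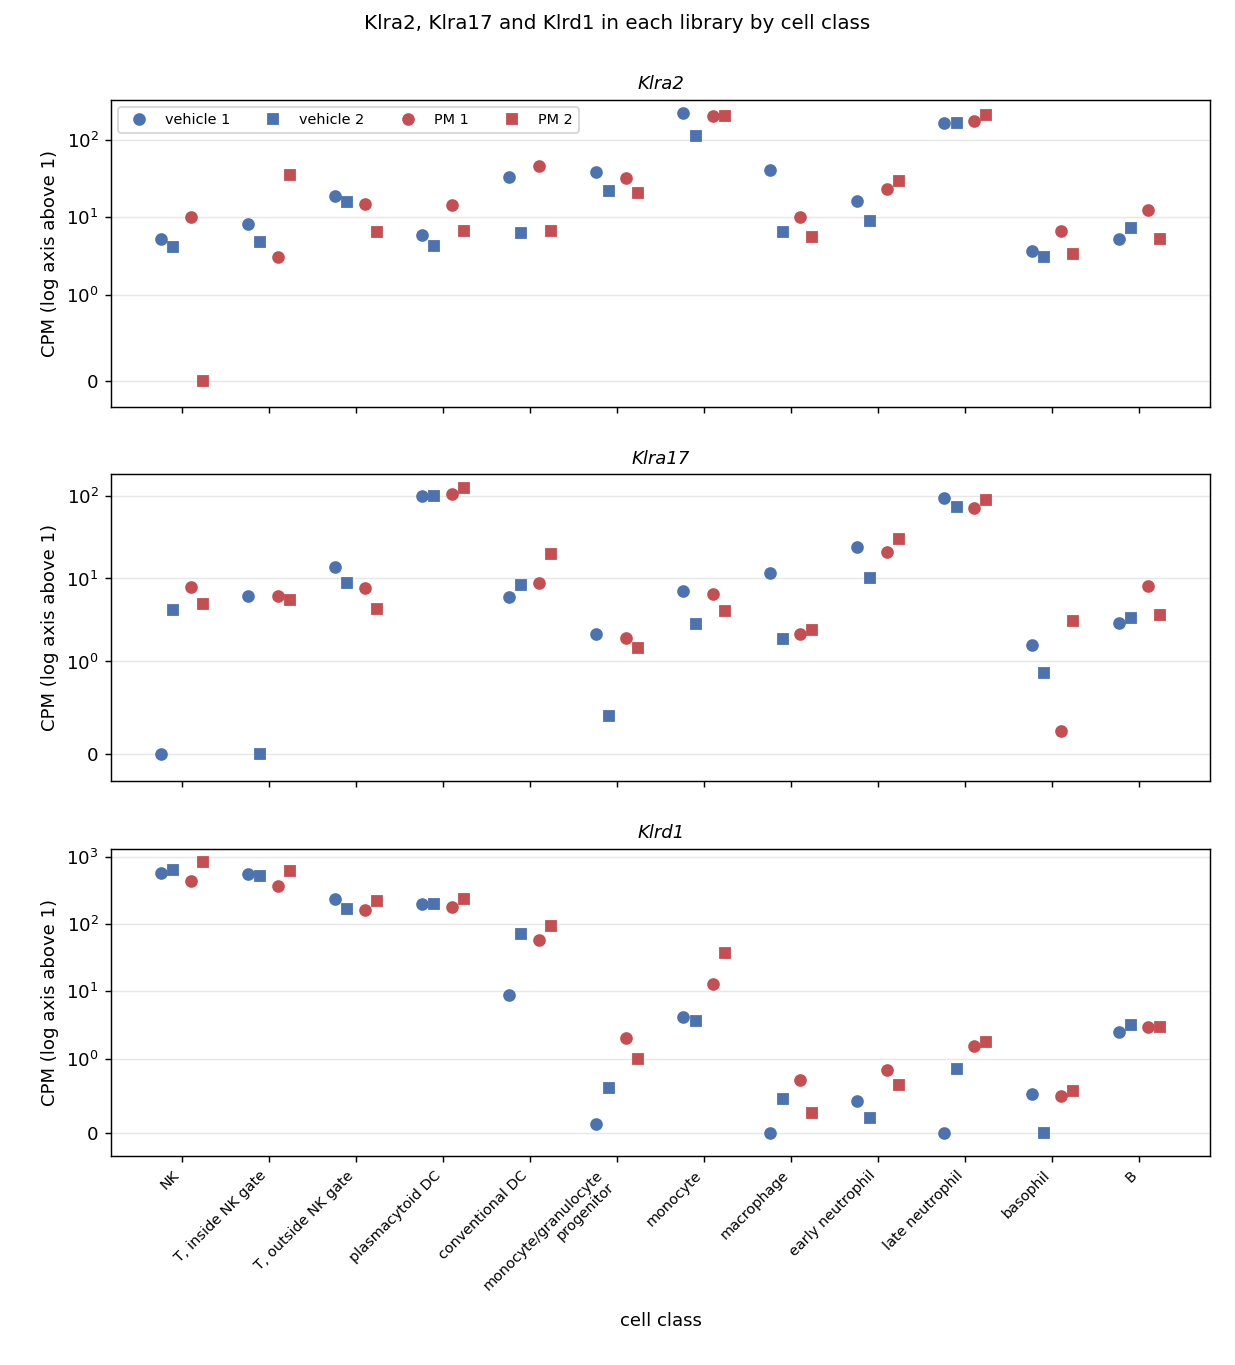
CPM (log axis above 1) of Klra2, Klra17 and Klrd1 (top to bottom) in 12 cell classes; each point is 1 library, blue for vehicle and red for PM. Klra2 is highest in late neutrophils and in monocytes outside the progenitor and macrophage gates, Klra17 in plasmacytoid dendritic cells and late neutrophils, and Klrd1 in NK cells, with T cells and plasmacytoid dendritic cells next.

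The remaining members were rare. Klrb1 had 68 UMIs in all kept cells, of which 39.7% fell in plasma cells and 33.8% in B cells, and Klrg2 had 36 UMIs, Klrc3 30, Klri1 7 and Klra10 2. Klra5 and Klra6 had 88.9% and 90.4% of their UMIs in T cells, Klra1 68.0%, and Klrb1b had 58.3% of its 338 UMIs in NK cells. In NK cells Klra5 had 0 UMIs in vehicle 1, vehicle 2 and PM 1 and 3 in PM 2.

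Of the partners of these receptors, Tyrobp was at 886, 840, 1024 and 834 CPM in NK cells and Hcst at 325, 426, 326 and 540 CPM, with overlapping groups. In NK cells none of 20 signalling genes, 6 ligands, 11 transcription factors, 7 effectors and 7 other receptors tested was called by edgeR with PM, and at an unadjusted p under 0.05 there were 0, 0, 1, 0 and 0. In T cells none of 21, 7, 12, 8 and 8 was called, with 6, 0, 2, 4 and 4 at an unadjusted p under 0.05. The unadjusted counts over all genes stand with the NK and T cell results above, and no result on these lists is read from them. The ligands H2-T23 (184, 259, 258 and 329 CPM in NK cells) and Clec2d (226, 372, 326 and 697 CPM) were not called in NK, T, neutrophil or monocyte sums. In NK against T cells, 2.02% of all 9264 genes were called higher and 3.09% lower. Of 22 signalling genes, 5 were called higher, among them Sh2d1b1 (2.74), Lat2 (1.67) and Syk (1.08). Another 3 were lower (Plcg1 at -2.30, Lat at -2.09 and Hcst at -0.52), while 0 of 7 ligands were called (0 at an unadjusted p under 0.05). Of 12 transcription factors, 4 were higher (Zeb2, 1.78; Tbx21, 1.35; Eomes, 1.23; Id2, 0.86) and 2 lower (Ikzf2, -1.91; Tcf7, -1.46), and of 8 effectors 6 were higher, led by Gzma (6.17), and Gzmk was lower (-3.56). Of 7 other receptors, Cd244a (2.11) and Il2rb (0.68) were higher. The group through which each of these genes passed the filter is not given, so the calls describe their values only.

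In neutrophils, Fyn (1.19), the ligand Clec2i (1.43), the chemokine Ccl5 (2.52) and the receptor Cd226 (2.70) rose with PM and Cd244a fell (-1.45), out of 18, 11, 4 and 5 genes tested in the signalling, ligand, effector and other receptor lists, and none of 9 transcription factors was called (5 at an unadjusted p under 0.05). In monocytes and macrophages, Nkg7 (0.78) rose, and the transcription factor Nfil3 (-1.10) and Cd244a (-1.01) fell. There 4 effectors, 11 factors and 7 other receptors were tested. None of 19 signalling genes and 11 ligands was called (7 and 1 at an unadjusted p under 0.05). Over all genes, 2.93% of 12611 were called higher in neutrophils and 0.484% of 12806 in monocytes and macrophages. The shares called lower are not given, nor is the group through which each listed gene passed the filter. The calls thus describe values only. Markers of NK and T cells were also higher with PM in neutrophils, and their part was not tested.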

How the data were processed

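The data were counts of UMIs per gene and cell from 10x 3′ single-cell libraries of bone marrow of 2 vehicle and 2 PM mice, deposited by the authors as raw filtered matrices from Cell Ranger 6.0.1. The study's methods name GRCm38 as the build, whereas the submitters' processing notes name GRCm39; positions are GRCm38. The limits on cells were those of the study's methods (300 genes detected or more, mitochondrial share not above 20%), and 39743 barcodes passed. Cells were assigned by marker UMIs, not by clustering, and doublets were not removed in the main results. UMIs were summed per class and library, and the sums entered the quasi-likelihood test of edgeR 4.0.16 (robust fit, TMM scaling, low genes removed by filterByExpr, condition only; mouse as a block between classes) in R 4.3.3, with adjustment by Benjamini and Hochberg over all genes. A call needed an adjusted p under 0.05 and an absolute log2 fold change over 0.5. DESeq2 1.42.0, other filters and gates, and each library left out were alternatives. Simulated counts were used to test the scripts. Members with at least 40 UMIs in NK, T or myeloid cells are named with values, and the others by name. The members and lists were chosen with earlier results of these data known. Counting intervals and floors cover counting error only. The edgeR p-values of PM against vehicle rest on 2 mice per group, with the variance of each gene moderated over all genes. Tests between classes compared cells within the same mice. Libraries held 69828595 to 109447030 UMIs.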

Additional observations from a re-analysis of the deposited data

Results flagged for a closer look

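The change with PM in Klrb1b differed between NK cells and T cells in a test of the difference itself, by 4.17 on the log2 scale (edgeR, adjusted p = 0.0456; 0.000463 to 0.102 over the alternatives). The T cell side rested on 13, 10, 0 and 4 UMIs in vehicle 1, vehicle 2, PM 1 and PM 2. Klrb1b passed the filter through NK cells alone, so this call describes its values only.

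The change with PM in Klrb1f differed between neutrophils and monocytes with macrophages in the same kind of test, by 1.04 on the log2 scale (edgeR, adjusted p = 0.00429; 8.87e-04 to 0.0192 with each library left out). Klrb1f was higher in both PM libraries than in both vehicle libraries in each of the 2 classes. The subsets of monocytes were not tested against neutrophils one by one, so the difference is stated for the summed class only.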

How the results depend on the processing

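The number of called members in NK cells stayed at 0 under all 13 alternatives, including the gates without a member and without cells rich in myeloid UMIs. In T cells, where none was called, DESeq2 called 2, library sizes without TMM 1, no filter on low counts 6, the stricter cell filter 1, removal of the cells with the highest doublet scores 1 and the T cells outside the NK gate 1, while CD8 T cells alone gave 0, and leaving out each library gave 0 to 3. With the percentile gate of myeloid cells (3 members), DESeq2, the 95th percentile, a fixed share of UMIs and the neutrophil gate each gave 1, no filter gave 5, and leaving out each library gave 1 to 3. In neutrophils (1 member) no filter gave 3 and leaving out each library 1 to 2. In monocytes and macrophages (2 members) DESeq2 gave 5, no filter 11 and leaving out each library 0 to 10. The difference between NK and T cells in the effect of PM (1 member) gave 0 with T cells outside the NK gate and 0 to 7 with each library left out. The NK against T cell count of 13 ranged from 12 to 14. The cause of these shifts was not tested. The shares over all genes under these alternatives are not given. The counts may include members that passed the filter through 1 group alone, so they are not read as results on the family. The share of NK cells with a Klrd1 UMI moved from 83.6% to 70.8% after thinning to 2000 UMIs. For single members, 298 values kept their direction and side of the threshold, 22 passed it and 26 lost it, and no called value turned its direction.

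With the replicate number as a block, 6 members were called in T cells and 5 in monocytes and macrophages, and the call counts of 0 in NK cells and 1 in neutrophils were the same. The labels give the groups the same numbers 1 and 2 without saying that mice were paired, and the correlation of same-numbered mice in their deviations was 0.29 in NK cells, -0.13 in T cells, -0.13 in neutrophils and -0.02 in monocytes and macrophages. Crossed numbers as a block gave 0 called members in T cells and 1 in neutrophils. The shares of all genes called with these blocks are not given, so the counts are not read as results on the family.

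Doublet removal was planned with the automatic threshold of Scrublet, which called 1 of 9261 cells in vehicle 1 and 0 in PM 2, so the 5% of cells with the highest scores per library were left out in its place. This choice, the neutrophil and monocyte gates and the alternatives on lymphoid UMIs, on the crossed block and on the fixed share of UMIs were made after seeing the data.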
